A study of Mus musculus with 9 samples.

Results

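The genes described here encode the proteasome, without the catalytic subunits that interferon induces. They were found by symbol, as the genes named Psma, Psmb, Psmc, Psmd, Psme, Psmf or Psmg and a number, leaving out Psmb8, Psmb9 and Psmb10, among probe sets that the platform assigns to a single gene. Where a gene had several, the one with the highest 9-array mean was read. This gave 46 of the 18194 genes tested. Of these, 44 encode proteasome subunits, assembly chaperones, activators or the inhibitor, and Psmc3ip and Psme3ip1 match by symbol although they encode no subunit. No value is given for Psme2, because its probe set is shared with Psme2b, so of the pair Psme1 and Psme2 only Psme1 was measured by a probe set of its own.

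RNA was measured in SCCVII, a mouse line from a squamous cell carcinoma of the mouth, on Affymetrix mouse expression arrays, with 3 arrays in each of 3 groups. PA was the parental line in standard culture. NIR lines came from tumours that PA cells formed in stroma that had not been irradiated, and IR lines came from tumours in stroma that had been irradiated ahead of injection. The labels call IR tumours hypoxic, invasive and metastatic, and say that the IR lines stay invasive and metastatic in normoxic culture, whereas NIR tumours and lines are called poorly so. All groups share the SCCVII origin, and IR and NIR both passed through a tumour. The samples are called independent, but the labels leave unsaid whether a group's arrays stand for different tumours, lines or dishes. The p-values measure the spread between these samples, which may be technical.

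The array medians were 4.45 to 4.52 (log2), but the deposited values had been normalized to one distribution, so this does not measure likeness. The Gapdh control probes at the 3' end minus those at the 5' end, a measure of RNA quality, gave -0.15 to -0.11 for IR arrays, -0.17 to -0.07 for NIR and -0.17 to -0.10 for PA. Of 8 squamous or epithelial markers, Krt8 and Krt18 read from 11.2 to 12.8 on every array, while 5 others, including Krt5, Krt14, Trp63 and Cdh1, had means below 5 in every group. The list of 8 fibroblast markers averaged 7.93 to 8.05 on IR arrays, 7.71 to 8.15 on NIR arrays and 7.53 to 7.66 on PA arrays. The list of 10 macrophage markers averaged 4.82 to 5.32 on IR arrays, 4.81 to 4.93 on NIR arrays and 4.63 to 4.73 on PA arrays, with 5, 5 and 7 of the 10 below 5. The highest of these values belonged to IR3, where Lyz2 read 8.25. The part of fibroblasts or macrophages in the results was not tested. In such samples fewer cells of a type and less RNA per cell cannot be told apart.

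The proteasome degrades proteins that carry chains of ubiquitin. Its barrel-shaped core, the 20S particle, holds outer rings of alpha subunits that gate entry and inner rings of beta subunits, of which Psmb5, Psmb6 and Psmb7 carry the cutting sites. The 19S cap recognises ubiquitin, removes it, unfolds the substrate and feeds it into the core, and it consists of a base with ATPases and a lid. Other caps can take its place, among them the PA28 activator built from Psme1 and Psme2, which is linked to the making of peptides for MHC class I. Interferon gamma raises Psme1, Psme2 and the exchangeable catalytic subunits Psmb8, Psmb9 and Psmb10, whereas loss of proteasome activity raises the core and cap genes together through the factor Nfe2l1, which binds antioxidant response elements.

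Promoter sequences of the members were searched for both kinds of element, because the first is tied to the coordinated genes and the second to the interferon-induced ones. RefSeq windows on GRCm38.p6, from 250 bases before to 50 after a gene's start, were held for 38 of the 46 members. The core of the antioxidant response element was searched as TGACNNNGC and the core of the interferon-stimulated response element as GAAANNGAA, both on either strand. The first was found in 6 of the 38 genes (15.8%), against 16.1% of the tested genes with a window and 12.4% of all 32851 windows. Its genes were Psmb5, Psmb6, Psmc6, Psmd9, Psmd12 and Psme4. The second was found in 7 of the 38 genes (18.4%), against 8.71% of the tested genes and 9.76% of all genes with a window. These genes were Psmb3, Psmb4, Psmc2, Psmd4, Psmd9, Psme1 and Psmg4, and Psmd9, which alone held both, had them at separate positions. Psmb8, Psmb9 and Psmb10 had no listed match of either kind, through lack of a match or of a window, so they gave no check. A match is a description of letters and neither a binding site nor a cause.

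The stretches below belong to the activator gene whose level differed between the groups, to a pair of constitutive catalytic subunits and to a structural subunit of the core with a like match. Each is written 5′ to 3′ on the gene's own strand, with the matched letters in capitals.
Psme1, interferon-stimulated core on the minus strand, chr14:55578494-55578522: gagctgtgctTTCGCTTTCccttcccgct
Psmb3, interferon-stimulated core on the minus strand, chr11:97703252-97703300: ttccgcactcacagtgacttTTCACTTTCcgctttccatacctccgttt
Psmb5, antioxidant core on the plus strand, chr14:54618014-54618062: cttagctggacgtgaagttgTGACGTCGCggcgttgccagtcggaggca
Psmb6, antioxidant core on the plus strand, chr11:70525338-70525366: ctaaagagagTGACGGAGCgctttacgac
Counted on the gene's strand from its start, the match begins 11 bases after it in Psme1 and, as negative positions, at -162 in Psmb3, -47 in Psmb5 and -9 in Psmb6. Minus strand here means the strand opposite to the gene's. The Psmb5 gene itself runs on the minus strand of the chromosome and the other 3 on the plus strand.

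Psme1 was the one member that passed a test. So few calls among 46 members are near the shares of all genes given below. Without regard to sign, the median log2 difference was 0.081 for members and 0.085 for all genes in IR against NIR. It was 0.043 and 0.070 in IR against PA, and 0.065 and 0.079 in NIR against PA. The members' median level was 10.70, beside 5.58 over all genes, so the 4062 genes with a mean above 8 were also read. Their medians in the same order of comparisons were larger than the members', at 0.117, 0.077 and 0.095. Levels are log2 values made by RMA, and a member was called when limma's Benjamini-Hochberg adjusted p over all 18194 genes was below 0.05. In IR against NIR 0 of 46 members were called, where 1.65% of all genes were. In IR against PA 0 of 46 were called, with 1.06% of all genes. In NIR against PA 1 of 46, Psme1, was called and was lower in NIR, with 1.3% of all genes called. limma's F test over the groups also called only Psme1, with 2.34% of all genes called. At an unadjusted p below 0.05 limma gave 4 of 46 members lower and 0 higher in IR than in NIR, where 8.08% of all genes were lower and 7.8% higher. In IR against PA it gave 1 lower and 0 higher, beside 4.29% and 4.3% of all genes. In NIR against PA it also gave 1 lower and 0 higher, beside 6.14% and 5.96% of all genes. In either direction, limma gave an unadjusted p below 0.05 for 28.5%, 12.8% and 18.7% of the genes with a mean above 8. The members' shares were lower, at 8.7% in IR against NIR, 2.2% in IR against PA and 2.2% in NIR against PA.

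The intervals around the differences were narrow. The 95% interval of the log2 difference lay inside a 1.5-fold change either way for 46 of 46 members in IR against NIR, 46 in IR against PA and 45 in NIR against PA, where Psme1 was the exception. Over all genes this held for 94.1%, 96.5% and 95.2%. The members' median log2 difference was -0.03 in IR against NIR, -0.03 in IR against PA and 0.01 in NIR against PA, beside medians of 0.0014, 0.0043 and 0.0046 over all genes. These medians moved with single arrays. IR minus NIR was 0.01 without NIR1, -0.01 without IR3, -0.05 without IR1 or IR2 and -0.09 without NIR2. IR minus PA was -0.07 without PA3, -0.05 without IR1, -0.0025 without PA2 and 0.0037 without IR3. NIR minus PA was -0.02 without NIR1, -0.0028 without PA3, 0.06 without NIR2, 0.03 without PA2 and 0.02 without PA1 or NIR3. No member spanned more than 0.763 between its lowest and highest array, the range of Psmd10, and the median member spanned 0.313. Among all 18194 genes 442 spanned more than 1, and the median gene spanned 0.374. Of the 4062 genes with a mean above 8, 98 spanned more than 1, with a median of 0.375.

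**Figure D1:**
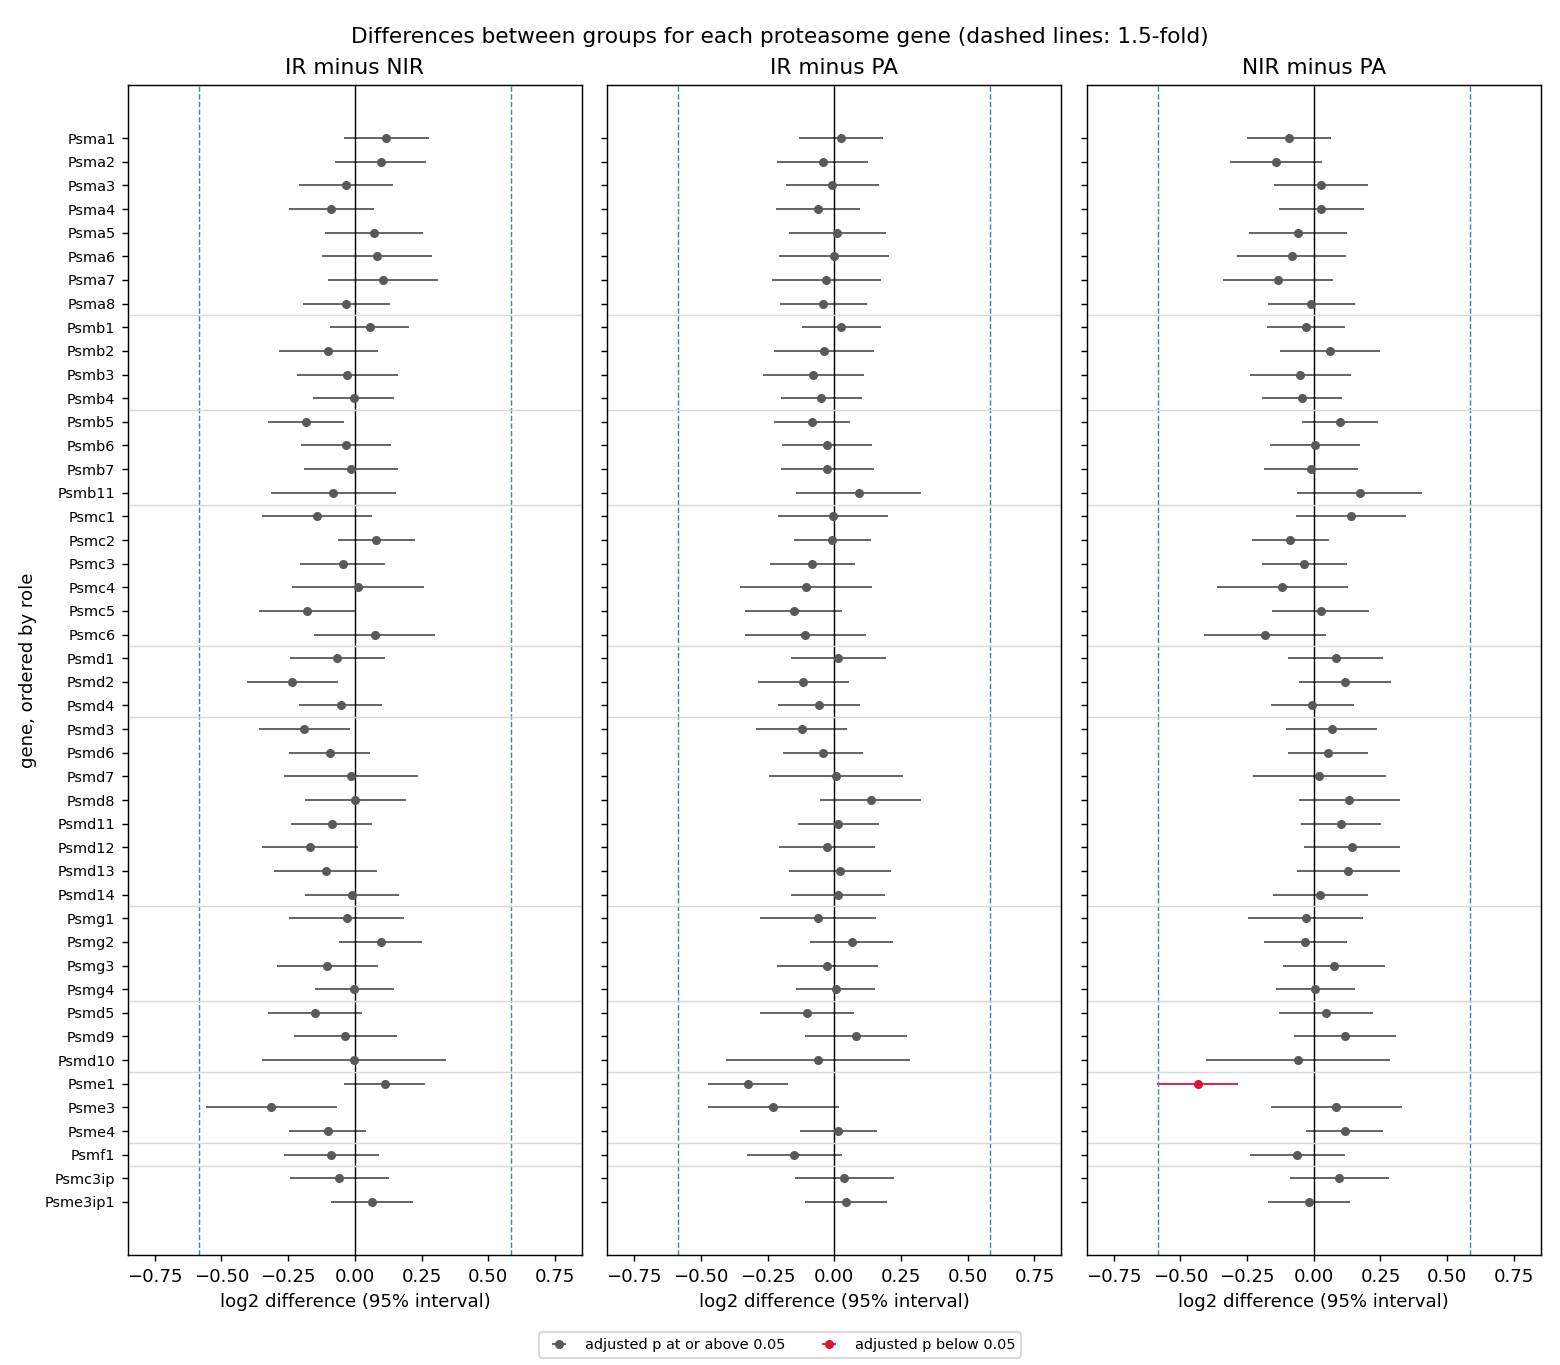
Log2 difference between groups (horizontal axis, points) with its 95% interval from limma (bars) for each of the 46 genes (vertical axis, ordered by role), for IR minus NIR, IR minus PA and NIR minus PA. Grey lines separate roles and dashed lines mark 1.5-fold; the only red point, for an adjusted p below 0.05, is Psme1 in NIR minus PA at -0.44.

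Without any model, members whose 3 arrays of one group lay wholly on one side of the 3 of the other were counted beside the same share of all genes. In IR against NIR, 3 of 46 members were wholly higher in IR, where 8.69% of all genes were, and 7 wholly lower, where 9.4% were. In IR against PA, 1 member was wholly higher (7.26% of all genes) and 5 wholly lower (7.43%). In NIR against PA, 5 were wholly higher (7.82%) and 2 wholly lower (7.73%). Of the 4062 genes with a mean above 8, 588 were wholly higher and 766 wholly lower in IR than in NIR. Their counts were 485 and 636 in IR against PA, and 506 and 538 in NIR against PA. In each count the members' share was below that of these bright genes. The members wholly lower in IR than in NIR were Psmb5, Psmc5, Psmd2, Psmd3, Psmd12, Psme3 and Psme4, and those wholly higher were Psma1, Psmg2 and Psme1. Both comparisons with PA use the same PA arrays, so they are not independent of each other.

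Psme1 encodes the alpha subunit of the PA28 activator (Entrez Gene 19186). Its probe set read 10.94, 10.98 and 10.99 in PA, 10.55, 10.43 and 10.63 in NIR, and 10.66, 10.65 and 10.64 in IR. All 3 PA arrays lay above all 6 others, and the IR arrays lay just above the NIR arrays. In NIR it was 1.35-fold lower than in PA, a log2 difference of -0.44 (SE 0.069, 95% interval -0.59 to -0.28, limma adjusted p = 0.00851). This call held in 18 of 18 alternative settings, with adjusted p from 0.00149 to 0.0465. In IR it was 1.25-fold lower than in PA, at -0.32 (95% interval -0.48 to -0.17), which did not pass (limma adjusted p = 0.0532). That comparison passed in 6 of 18 alternatives, with adjusted p from 0.00968 to 0.22, among them the fit without NIR2 (limma adjusted p = 0.0317). IR minus NIR was 0.11 (95% interval -0.04 to 0.26, limma adjusted p = 0.486). The F test gave an adjusted p of 0.0134, and the call was lost without any single one of the PA arrays. The array with the highest mean of the macrophage markers, IR3, read 10.64 for Psme1, beside 10.66 and 10.65 in IR1 and IR2. A part of macrophages in the differences of Psme1 between groups was not tested.

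The other activators form caps of a different kind. Psme3 encodes the subunit of PA28 gamma, a nuclear activator that does not respond to interferon in the way of Psme1. It read 9.17, 9.12 and 8.89 in PA, 9.33, 9.09 and 9.01 in NIR, and 8.97, 8.88 and 8.64 in IR. The IR arrays were wholly below the NIR arrays but overlapped those of PA. IR minus NIR was -0.31 (SE 0.11, 95% interval -0.56 to -0.07), the lowest value of any member in that comparison, and did not pass (limma adjusted p = 0.19). IR minus PA was -0.23 (limma adjusted p = 0.627) and NIR minus PA 0.09 (limma adjusted p = 0.822). A dimmer probe set of Psme3, with a mean of 8.37, gave -0.42, 0.03 and 0.45 for the same comparisons, so the probe sets differed in where PA lay. Psme4 encodes PA200, a single-chain activator that acts in the nucleus. It lay between 9.92 and 10.13 on all arrays, and its differences were -0.10 in IR against NIR, 0.02 in IR against PA and 0.12 in NIR against PA, with limma adjusted p of 0.511, 0.98 and 0.525. Other probe sets of Psme4, with means of 9.45 and 8.73, gave larger values of the same sign. These were -0.22 and -0.13 in IR against NIR and 0.23 and 0.15 in NIR against PA.

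The change of Psme1 against that of Psme3 was followed within arrays, as the difference of their log2 values. This difference was 0.42 higher in IR than in NIR and 0.52 lower in NIR than in PA, each with 3 arrays wholly apart from the other 3. IR minus PA was -0.10, with overlapping arrays. The exact 2-sided permutation test gave p = 0.1, 0.1 and 0.5, where 0.1 is the smallest that 3 arrays against 3 allow. Adjusted over the 30 such comparisons made, these became 0.115, 0.115 and 0.536. In IR against NIR Psme1 was already wholly higher and Psme3 wholly lower, so their separation was fixed. Psme1 alone gave -0.44 in NIR against PA, so these are not separate observations. Psme3 was read here by its brighter probe set (-0.23 in IR against PA). The dimmer one gave 0.03 there and 0.45 in NIR against PA, and the difference was not computed with it.

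Psmf1 encodes PI31, a protein first described as an inhibitor of the core. It read 8.94, 8.77 and 8.75 in PA, 8.83, 8.75 and 8.70 in NIR, and 8.74, 8.72 and 8.55 in IR. The IR arrays lay wholly below those of PA by a small margin. Its differences were -0.09 in IR against NIR, -0.15 in IR against PA and -0.06 in NIR against PA, with limma adjusted p of 0.667, 0.675 and 0.822. Dimmer probe sets of Psmf1, with means of 6.56 and 6.12, gave -0.10 and -0.21 in IR against NIR. They gave 0.02 and 0.06 in IR against PA and 0.11 and 0.27 in NIR against PA, so the probe sets differed in where PA lay.

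Among the constitutive catalytic subunits, Psmb5 differed most. It encodes beta 5, the chymotrypsin-like subunit that bortezomib blocks (Entrez Gene 19173). It read 11.20, 11.22 and 11.14 in PA, 11.33, 11.29 and 11.24 in NIR, and 11.14, 11.12 and 11.06 in IR. The groups did not overlap in any of the 3 comparisons and stood in the order IR, PA, NIR, although IR1 and PA3 both round to 11.14. The differences were small beside the threshold, at -0.18 in IR against NIR (SE 0.065, 95% interval -0.32 to -0.04, limma adjusted p = 0.191), -0.08 in IR against PA (limma adjusted p = 0.817) and 0.10 in NIR against PA (limma adjusted p = 0.601).

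Psmb6 encodes beta 1, the caspase-like subunit, and Psmb7 encodes beta 2, the trypsin-like subunit. Psmb6 read 11.48, 11.53 and 11.38 in PA, 11.60, 11.35 and 11.46 in NIR, and 11.45, 11.42 and 11.44 in IR. Psmb7 read 12.10, 11.92 and 11.83 in PA, 12.03, 11.87 and 11.92 in NIR, and 11.91, 11.93 and 11.93 in IR. In both genes all groups overlapped, and the 3 IR arrays were closer together than those of the other groups. Their log2 differences lay from -0.03 to 0.01 in all comparisons, and their 95% intervals reached -0.20 at the lowest and 0.17 at the highest.

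The catalytic subunits that replace these after interferon were left out of the 46 genes and read for contrast, and they were lower in both tumour-derived groups than in PA. In NIR against PA, Psmb9 was 1.56-fold lower (log2 difference -0.64, limma adjusted p = 0.000713) and Psmb8 1.49-fold lower (-0.57, limma adjusted p = 0.00557), while Psmb10 was at -0.43 and did not pass (limma adjusted p = 0.111). In IR against PA, Psmb9 was 1.3-fold lower (-0.38, limma adjusted p = 0.0328), a call lost without IR1, IR2 or any PA array. Psmb8 at -0.35 and Psmb10 at -0.48 did not pass in IR against PA (limma adjusted p = 0.105 and 0.094).

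**Figure D2:**
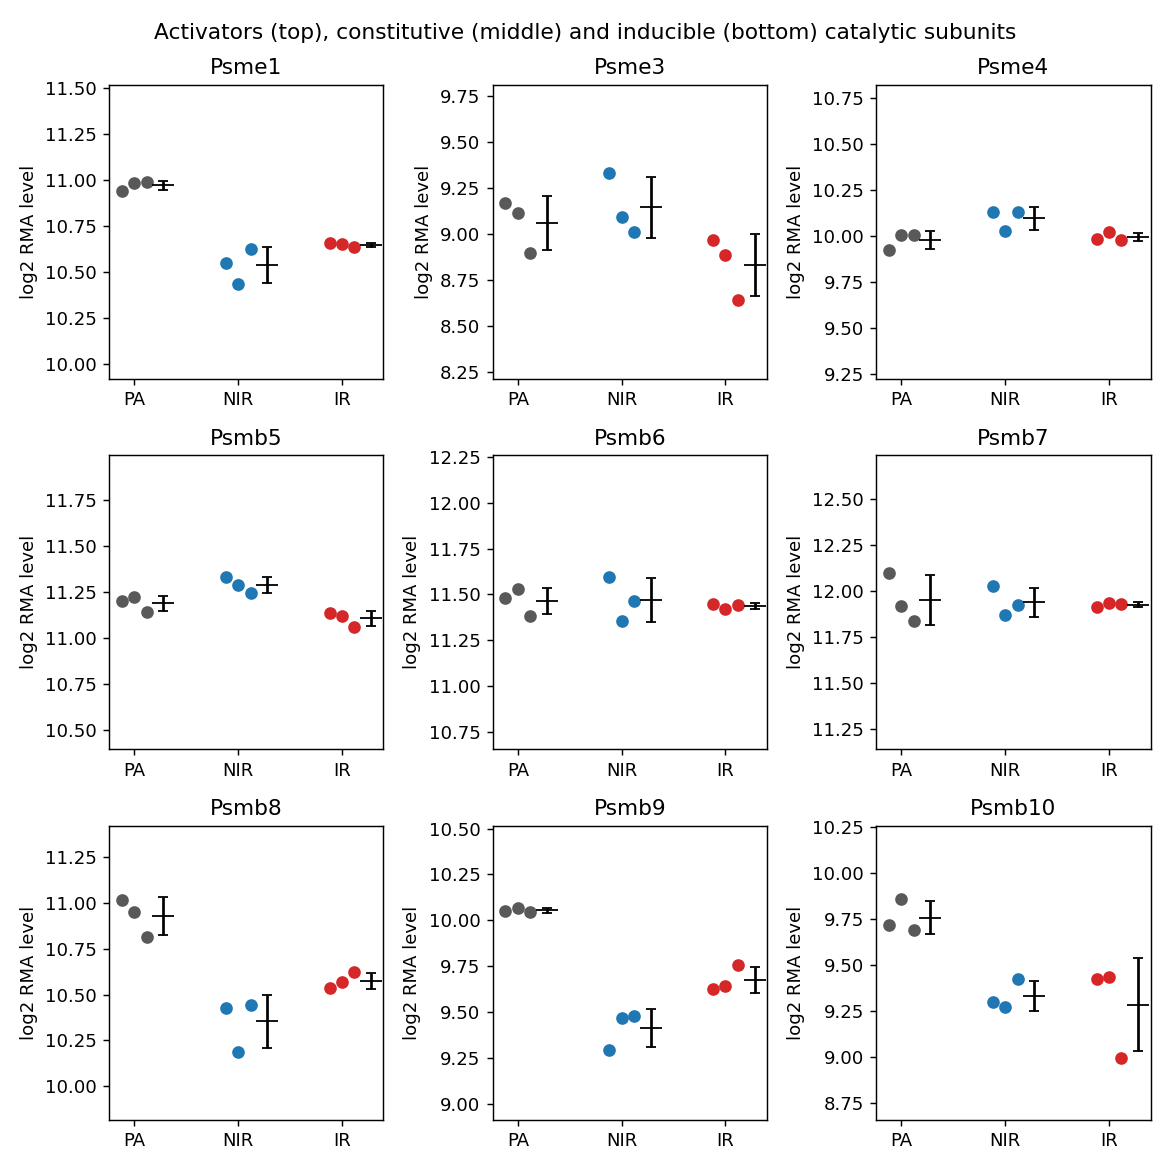
Log2 RMA level (vertical axes, each spanning the same range around the gene's mean) in each array of PA, NIR and IR for 3 activators, 3 constitutive catalytic subunits and the 3 inducible ones, with the group mean and SD (n = 3) as bars beside the points. Psme1, Psmb8, Psmb9 and Psmb10 are highest in PA, while Psmb5, the widest of the 3 constitutive subunits, spans 0.274 over the 9 arrays.

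Within arrays, the log2 value of each inducible subunit minus that of each constitutive one was lower in both derived groups than in PA, without overlap of arrays. The pairs share their genes and arrays, and Psmb8, Psmb9 and Psmb10 were each already wholly lower than PA in both groups, so the pairs are not separate observations. For Psmb9 minus Psmb5 the difference was -0.74 in NIR against PA and -0.30 in IR against PA. In IR against NIR it was 0.44, the largest of the pairs there, again without overlap, whereas Psmb10 minus Psmb6 differed by -0.01. Psmb5 was itself wholly lower in IR than in NIR. Psmb8 and Psmb9 were wholly higher, by 0.22 and 0.26, so that separation was already fixed by the single genes. Each non-overlapping pair has an exact 2-sided permutation p of 0.1, the smallest possible here, and 0.115 after adjustment over the 30 comparisons. These values compare changes, since levels of different probe sets are not comparable as amounts of RNA.

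The outer rings of the core are built from Psma1 to Psma7, which form the gate and the docking surface for the caps. All 7 read above 10.7 on every array and none was called. In IR against NIR their median log2 difference was 0.08, with 5 of 7 above 0, and it rested on NIR2, since without that array it was -0.02 with 2 of 7 above 0. Psma1 had the highest difference of any member in IR against NIR. It read 11.00, 10.97 and 10.97 in IR, 10.95, 10.74 and 10.89 in NIR, and 11.00, 10.95 and 10.91 in PA. The IR arrays lay wholly above the NIR arrays, by 0.12 on average (95% interval -0.04 to 0.28, limma adjusted p = 0.481).

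Psma7, another ring subunit, read 11.19, 10.86 and 11.20 in the NIR arrays, and from 11.17 to 11.30 in the other 6. NIR2 was thus below all 8 others. Psma2 had the same lowest array, at 11.57, against 11.74 to 11.89 in the other 8. Their differences in NIR against PA were -0.13 and -0.14, with limma adjusted p of 0.625 and 0.521. Psma8 is an alpha subunit of the testis and read from 3.65 to 3.84 on every array.

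The inner rings also hold subunits without a cutting site. Psmb1, Psmb2, Psmb3 and Psmb4 had log2 differences from -0.10 to 0.06 in IR against NIR, from -0.08 to 0.03 in IR against PA and from -0.05 to 0.06 in NIR against PA, and none was called. Psmb11, the thymus-specific catalytic subunit, read from 3.64 to 4.09 on every array and was not called. Its value of 0.17 in NIR against PA, the highest of any member there, was thus measured at a level below 5.

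The base of the 19S cap pulls substrates in with a ring of ATPases, Psmc1 to Psmc6, and none of the 6 was called. Their differences lay from -0.18 to 0.08 in IR against NIR, from -0.15 to -0.0046 in IR against PA, where all 6 were below 0, and from -0.18 to 0.14 in NIR against PA. Without IR3, 4 of 6 were below 0 in IR against PA, and without IR1, PA1 or PA2 5 of 6 were, with medians of -0.05 without IR3 and -0.03 without PA2 beside -0.09 with all arrays. Psmc5 had its lowest array in IR3, at 10.64, beside 10.94 and 10.88 in the other IR arrays, 10.96 to 11.05 in NIR and 10.94 to 11.00 in PA. It differed by -0.18 in IR against NIR (limma adjusted p = 0.328). Psmc6 had its lowest array in NIR2, at 10.33, beside 10.62 to 10.83 on the other 8, and differed by -0.18 in NIR against PA (limma adjusted p = 0.53). Without IR3 the difference of Psmc5 in IR against NIR was -0.09, and without NIR2 that of Psmc6 in NIR against PA was -0.05. Psmc1 had the highest difference of the ATPases in NIR against PA, at 0.14 (limma adjusted p = 0.61).

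Of the other base subunits, Psmd2 is a large scaffold on which shuttle proteins dock. It read 10.54, 10.42 and 10.30 in IR, 10.66, 10.72 and 10.58 in NIR, and 10.56, 10.56 and 10.48 in PA. NIR was wholly above both other groups, and IR overlapped PA. It was the member with the lowest unadjusted p in IR against NIR, at -0.23 (SE 0.078, 95% interval -0.41 to -0.06), and did not pass (limma adjusted p = 0.159). NIR minus PA was 0.12 (limma adjusted p = 0.604). Psmd1, the other large scaffold, and Psmd4, a ubiquitin receptor, differed by -0.07 and -0.05 in IR against NIR.

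The lid of the cap removes ubiquitin chains, and the member that cuts them is Psmd14. It read from 11.19 to 11.46 on all arrays, with differences of -0.01 in IR against NIR, 0.01 in IR against PA and 0.03 in NIR against PA, and 95% intervals that reached -0.19 at the lowest and 0.20 at the highest. Of the 8 lid genes, 7 were below 0 in IR against NIR, with a median of -0.09, and 8 of 8 were above 0 in NIR against PA, with a median of 0.09, but none was called. Without NIR1 these counts became 5 of 8 and 6 of 8, and without IR3 the first was also 5 of 8. Psmd3 and Psmd12, both structural lid subunits, were wholly lower in IR than in NIR, at -0.19 and -0.17 (limma adjusted p = 0.258 and 0.349). Psmd8, also in the lid, was wholly higher in IR than in PA, at 0.14 (limma adjusted p = 0.748), the highest of any member there.

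The assembly chaperones help the particle together and leave it. Psmg1 to Psmg4, which pair up to build the alpha ring, had differences from -0.10 to 0.10 over all 3 comparisons. Psmd5, Psmd9 and Psmd10, which hold ATPases of the base before they join, had differences from -0.15 to 0.12. Psmd9 differed by 0.08 in IR against PA (limma adjusted p = 0.887). Psmd10, also called gankyrin and known as an oncoprotein of liver cancer, read 8.50, 8.33 and 8.52 in IR, 8.80, 8.04 and 8.52 in NIR, and 8.62, 8.58 and 8.34 in PA. NIR1 was its highest array and NIR2 its lowest, so its range over arrays lay within one group, and its differences were -0.0041 in IR against NIR, -0.06 in IR against PA and -0.06 in NIR against PA. None of the 7 chaperones was called. The symbol matches Psmc3ip, a partner of meiotic recombinases, and Psme3ip1, a partner of Psme3, had differences from -0.06 to 0.10 and were not called.

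**Figure D3:**
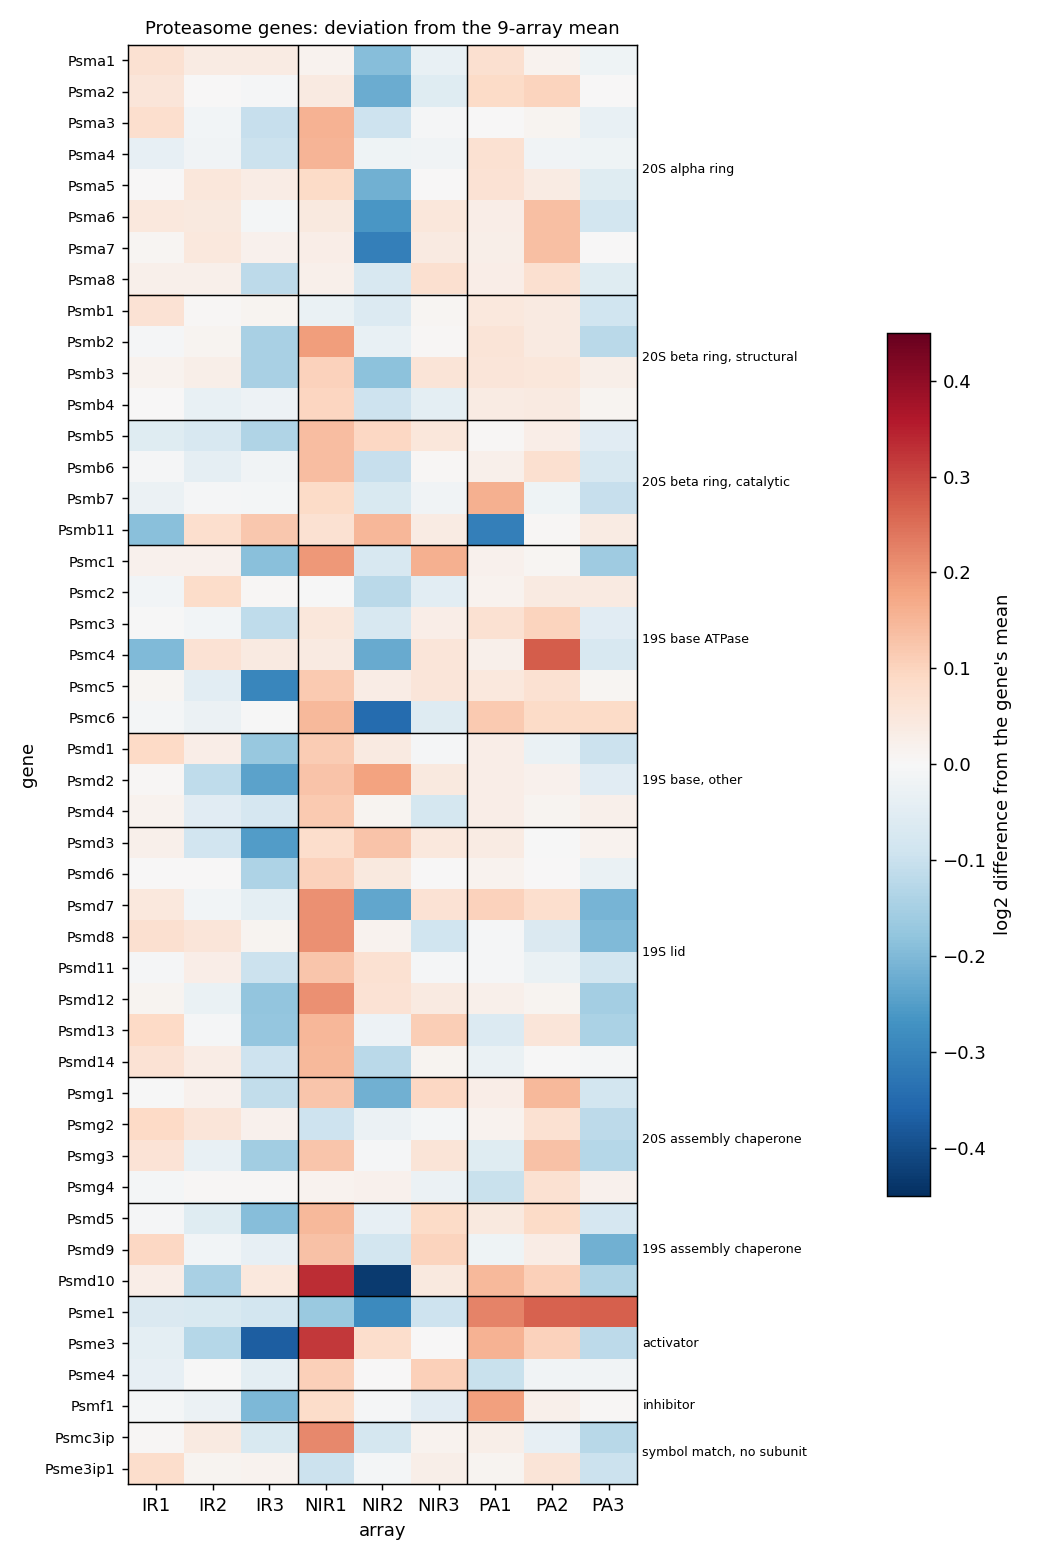
Log2 level of each gene (rows, grouped by role) in each array (columns) minus the gene's mean over the 9 arrays, with red above and blue below the mean. NIR1 is mostly red, IR3 and PA3 mostly blue, the alpha ring is blue in NIR2, and Psme1 is red in all PA arrays and blue elsewhere.

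Single arrays stood out in the members' levels. Of the 44 members that read above 5, 25 had their highest array in NIR1, against 15.4% of the 4062 genes with a mean above 8. IR3 was the lowest array for 18 of 44, against 20.5% of those genes, and NIR2 for 16, against 25.5%. Within its own group, PA3 lay below both other arrays for 36 of 44 members (49.0% of the genes above 8), IR3 for 31 (38.1%) and NIR2 for 30 (42.8%). The members' median deviation from the 9-array mean was 0.12 in NIR1 and -0.06 in NIR2, so the highest and one of the lowest arrays belonged to the same group.

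**Figure D4:**
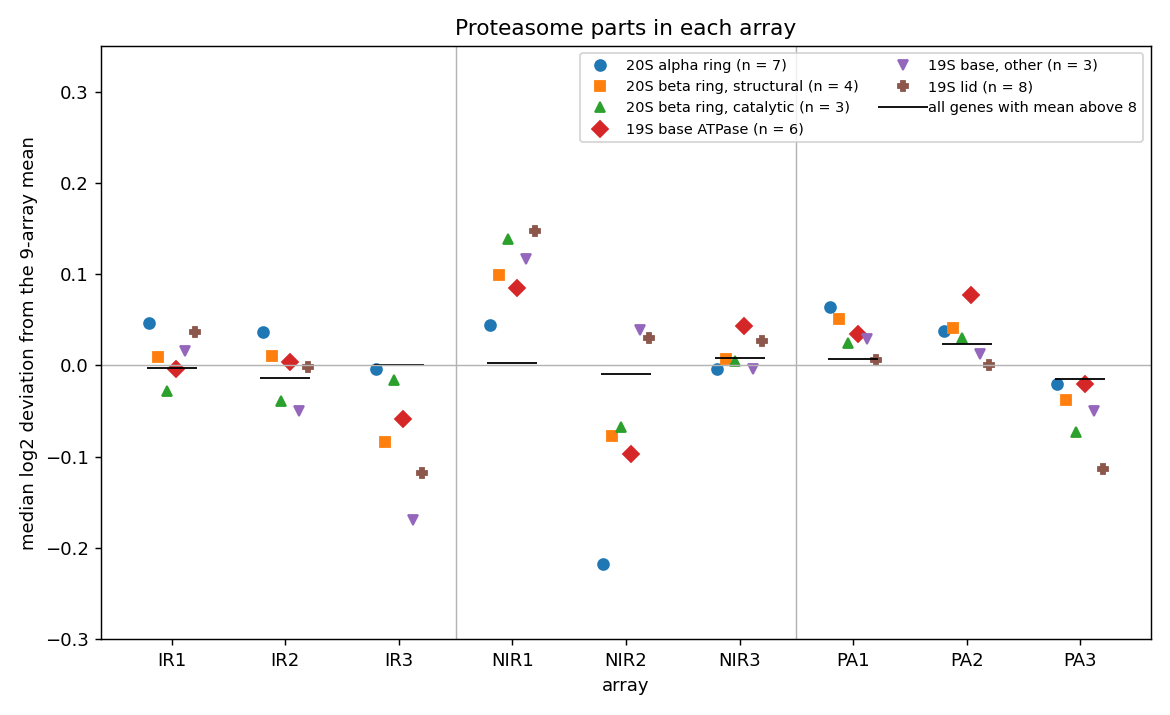
Median log2 deviation from the 9-array mean (vertical axis) of the genes of each part of the proteasome in each array (horizontal axis), with all genes of mean above 8 as black lines. The alpha ring lies at -0.22 in NIR2 while the lid lies at 0.03 there, and every part shown is above 0 in NIR1.

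The parts of the particle did not always move together across arrays. In NIR2 the median deviation was -0.22 for the alpha ring and 0.03 for the lid. In NIR1 it was 0.04 for the alpha ring and 0.15 for the lid, and in PA3 it was -0.02 and -0.11. What separates these arrays was not tested.

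Other probe sets of the same genes gave a further reading. There were 53 of them, of which 30, in 20 genes, had a mean above 5. None of the 53 was called in any comparison when all 34944 single-gene probe sets were tested with limma. Their values did not always match those of the brightest probe set, on which the ranges above rest. A dimmer probe set of Psmb4 (mean 11.07) gave 0.17 in IR against NIR and -0.24 in NIR against PA, beside -0.0043 and -0.04. In IR against NIR, that of Psmg2 (mean 9.46) gave 0.19 beside 0.10, and that of Psmc4 (mean 10.20) gave -0.11 beside 0.01. Those of Psma7 (mean 10.91) and Psmd13 (mean 9.31) lay closer, at 0.11 beside 0.10 and -0.12 beside -0.11. Psme1 and Psmb5 have no second probe set of a single gene, so their values rest on one probe set each.

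The wider ubiquitin route was read from a list of 31 genes, 22 of them measured, and 0 of 22 were called in any comparison. At an unadjusted p below 0.05, limma gave 1 of the 22 higher and 6 lower in IR than in NIR, beside 7.8% and 8.08% of all genes. It gave 0 in IR against PA, and 4 higher and 1 lower in NIR than in PA, beside 5.96% and 6.14% of all genes. The 9 measured shuttle and p97 genes, which carry ubiquitinated proteins to the proteasome, had a median of -0.23 in IR against NIR, with 6 of 9 below 0. Their median was 0.0040 in IR against PA, with 5 of 9 above 0, and 0.21 in NIR against PA, with 8 of 9 above 0. The nearest to the threshold were named after their values were seen. Nploc4, a cofactor of p97, read 8.49, 8.58 and 8.42 in IR, 8.92, 9.01 and 8.71 in NIR, and 8.65, 8.70 and 8.64 in PA. NIR lay wholly above PA and PA wholly above IR, with IR minus NIR at -0.38 (limma adjusted p = 0.051). Rad23b, a shuttle that binds both ubiquitin and the cap, had all NIR arrays, from 10.63 to 10.88, above all 6 others, which read from 10.33 to 10.47. It differed by -0.33 in IR against NIR (limma adjusted p = 0.0708) and 0.33 in NIR against PA (limma adjusted p = 0.0855). Nfe2l1, the factor that raises proteasome genes, was lower in each IR array than in each NIR array but did not pass, at -0.23 (limma adjusted p = 0.126). Over all genes, 9.4% were wholly lower in IR than in NIR, as were 766 of the 4062 genes with a mean above 8. The 3 measured genes of transcriptional control, Nfe2l1 among them, ran from -0.23 to 0.20 in that comparison, with 1 above 0. A link between Nfe2l1 and the members' levels was not tested.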

How the data were processed

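The deposited table holds log2 expression values for 45100 probe sets on 9 arrays, made by RMA per the submitters' processing notes, with version and settings not given in the sources used here. RMA normalizes arrays to one distribution, so a shift shared by most genes would not be seen. Of the probe sets, 34944 were assigned to a single gene by the platform annotation, and 34740 of these had their symbol matched to a RefSeq table. No further scaling was applied. Arrays have no counting depth, and their number limits the precision.

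All 9 arrays entered a single limma 3.58.1 fit in R 4.3.3 (group means by lmFit, then eBayes, 2-sided, 6 residual and 5.48 prior degrees of freedom), with Benjamini-Hochberg adjustment over 18194 genes and a threshold of 0.05. On data simulated for IR minus NIR over 18194 genes, this called 3 of 67 genes with a log2 change of 0.25, 49 of 67 with 0.5 and 62 of 66 with 1, and 9 of 123 calls were false. Within-array differences were tested by exact permutation. Every member may be named. More detail was given for called members, catalytic subunits, activators, the inhibitor, Psmd14 and, in each comparison, the 3 members with the largest rise and fall. Members, lists and motifs were chosen with earlier results of these data known. Same-numbered arrays did not deviate together (correlations of -0.20 to 0.10), so the numbers were not used as pairs. Alternatives were a signal filter, averaged probe sets of a gene, no _s_at or _x_at probe sets, median centring, a second quantile normalization, eBayes trend and robust settings, array weights, the compared groups alone, the replicate block and each array left out. Plots were made with matplotlib 3.10.9 (Python 3.11.15).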

Additional observations from a re-analysis of the deposited data

How the results depend on the processing

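The count of members called in IR against NIR was 0 and in NIR against PA 1, Psme1, under every alternative run. In IR against PA the count of 0 became 1, Psme1, with a mean signal above 5, with a gene's probe sets averaged, with eBayes trend and robust settings, with array weights and with the compared groups alone. Leaving out an array gave 0 to 1 in that comparison, with 1 only without NIR2, and 0 to 1 for the F test, with 0 without PA1, PA2 or PA3. With the replicate block the members called were 0, 0, 1 and, for the F test, 1, as without it, and Psme1 in IR against PA had an adjusted p of 0.117, while the immunoproteasome gene Psmb9 lost its call there (0.0597). Over all genes the block gave 230, 164, 203 and 330 calls, beside 300, 192, 236 and 426 without it, and 1 of 9 arrays correlated best with its own number. All-gene calls in IR against NIR fell to 11 with the compared groups alone, and leaving out an array gave 77 to 271. In IR against PA they rose to 467 with array weights and in NIR against PA to 382. With a signal filter 400 of 10329 genes were called in IR against NIR. Of 1113 values under alternatives, taken from the members given in more detail without Psme1, 0 were called. The causes were not tested. In the simulation few changes of 0.25 were called, so differences of that size in single members were mostly below what 3 arrays a group can show.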
